A study of Mus musculus with 15 samples.

Results

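The 9 genes described here mark B cells (Cd79a, Cd79b and Ms4a1), antibody-secreting cells (Igj and Mzb1) or the signals that build lymphoid tissue (Cxcl13, Cxcr5, Ccl19 and Ltb). They were chosen by symbol, and all 9 were found among the 23420 symbols of the deposited expression table, which uses the older name Igj for the gene now called Jchain. Their abundance was measured by RNA-seq of bulk tumors in TPM, a transcript level that is corrected for transcript length and scaled to a total of 1000000 in each library. The tumors were syngeneic grafts of mouse melanoma lines.

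Each of 5 groups held 3 libraries. UV2 anti-PD-1 and UV2 isotype tumors grew from D3UV2 cells, a derivative of the parental melanoma line that carries putative neoantigens induced by UVB light. Parental triple therapy, parental anti-PD-1 and parental isotype tumors grew from D4M.3A.3 cells. Anti-PD-1 antibody blocks PD-1, an inhibitory receptor of T cells, and the isotype antibody is its control. Triple therapy combined ablative fractional photothermolysis, in which a laser ablates narrow channels of skin, and the Tlr7 agonist imiquimod, given as a cream, with an antibody that the labels give as anti-PD-1 in one place and as isotype in another. Which antibody these mice received is unknown. All hosts were female C57BL/6 mice of 8 weeks that received 1000000 cells in each flank, with antibody on days 8, 10 and 12 and tumor collection on day 13. Each line stands for 1 cell line only, and nothing in the labels ties the 3 libraries of a group to separate animals, so p-values cover the spread among these samples, which may be technical.

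Cd79a and Cd79b are the signalling chains of the B cell receptor, and Ms4a1 encodes CD20, a surface protein of mature B cells. Plasma cells, into which B cells develop when they secrete antibody, use the joining chain (Igj) to link antibody units and the chaperone Mzb1 to assemble them. In lymph nodes, and in the lymphoid aggregates that can form in tumors, the chemokine Cxcl13 draws cells that carry Cxcr5 into follicles, Ccl19 draws cells that carry Ccr7, and lymphocytes display lymphotoxin beta (Ltb) to stromal cells that carry its receptor Ltbr.

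Ltb and Cd79b rose in UV2 anti-PD-1 tumors against parental anti-PD-1 tumors, by 2.49 ± 0.59 and 2.20 ± 0.57 on the log2(TPM + 1) scale (limma, Benjamini-Hochberg adjusted p = 0.0185 and 0.0233). No other member passed the test in any comparison, and none passed for an effect of anti-PD-1 or of triple therapy within a line. Of all genes, 26.4% passed between the lines under anti-PD-1, and 9.31% passed as higher in UV2. At most 0.0221% of all genes passed for an effect of anti-PD-1 or of triple therapy within a line. The calls of Ltb and Cd79b were lost without UV2 anti-PD-1 replicate 3, and again without parental anti-PD-1 replicate 3. The 3586 calls over all genes fell to 9 in each case. Ms4a1 was listed under 1 TPM in all 15 libraries, as were Pax5, the transcription factor that maintains B cell identity, and Cr2, the complement receptor of mature B cells and follicular dendritic cells. Not all B cell genes were as low, and Cd79b reached 1 TPM in all 15 libraries. The plasma cell genes Igj and Mzb1 varied widely between libraries of the same group and were high or low in the same libraries.

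Promoter sequences from the RefSeq annotation of GRCm38.p6 were matched for 5 of the 9 genes (Cd79a, Igj, Cxcl13, Ccl19 and Ltb). The Ltb promoter is shown because Ltb had the larger of the 2 differences that passed the test, and the Igj promoter because Igj followed Mzb1 most closely. Each runs 5′ to 3′ and ends before the first transcribed base of the RefSeq and GENCODE starts. The Ltb sequence lies on the plus strand at chr17:35194257-35194438 and the Igj sequence on the minus strand at chr5:88527898-88528147.
Ltb: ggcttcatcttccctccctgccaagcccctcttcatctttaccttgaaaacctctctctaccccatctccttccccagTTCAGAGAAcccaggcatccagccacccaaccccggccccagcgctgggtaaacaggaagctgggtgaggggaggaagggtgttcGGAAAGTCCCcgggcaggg
Igj: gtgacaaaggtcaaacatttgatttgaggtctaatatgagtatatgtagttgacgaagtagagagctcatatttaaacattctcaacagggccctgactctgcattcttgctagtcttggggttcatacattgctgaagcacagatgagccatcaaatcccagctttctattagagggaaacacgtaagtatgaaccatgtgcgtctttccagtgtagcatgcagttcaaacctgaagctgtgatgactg
Capitals in the Ltb sequence mark a match to the gamma-activated site TTCNNNGAA, the element read by STAT factors, at 172 to 164 bases before the RefSeq start, and a match to the NF-kappaB site on the minus strand at 87 to 78 bases before it. Over both strands of the 250-base windows of 32851 RefSeq promoters, 7.02% held the gamma-activated site and 7.25% the NF-kappaB site. No match to the octamer ATTTGCAT (1.60% of promoters) or to the EBF pair, TCCC and GGGA separated by 2 bases (0.779%), elements read by B cell transcription factors, was found in the windows of the 5 genes. The core of the interferon-stimulated response element, 2 copies of GAAA separated by 2 bases (2.98% of promoters), was matched in the Ccl19 window and in none of the other 4. The Ccl19 match lies before the RefSeq start but past the GENCODE start, and so within the GENCODE transcript. The matches are a description of letters and were not tested as sites. Only these exact patterns were searched, so a window without a match may still hold a site that departs from them.

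The number of reads behind each library is unknown, since TPM values keep no depth. Where a gene is listed at 0, an absence of reads and a failed estimate cannot be told apart. Between 12239 and 13993 genes reached 1 TPM in a library. Parental triple therapy replicate 1 stood apart through skin transcripts: the summed level of 8 keratinocyte markers ran from 190 to 27833 TPM in the triple therapy tumors and from 2.64 to 281 TPM in UV2 anti-PD-1 tumors, and was at most 4.55 TPM in the UV2 isotype, parental anti-PD-1 and parental isotype tumors. Log2 fold changes of the tested members and of the named genes under triple therapy are given with and without that library. The 8 melanocyte lineage markers summed to only 8.20 to 35.4 TPM per library, although the tumors are labelled melanoma. In bulk tumors, fewer cells of a type and less RNA per cell cannot be told apart.

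**Figure D1:**
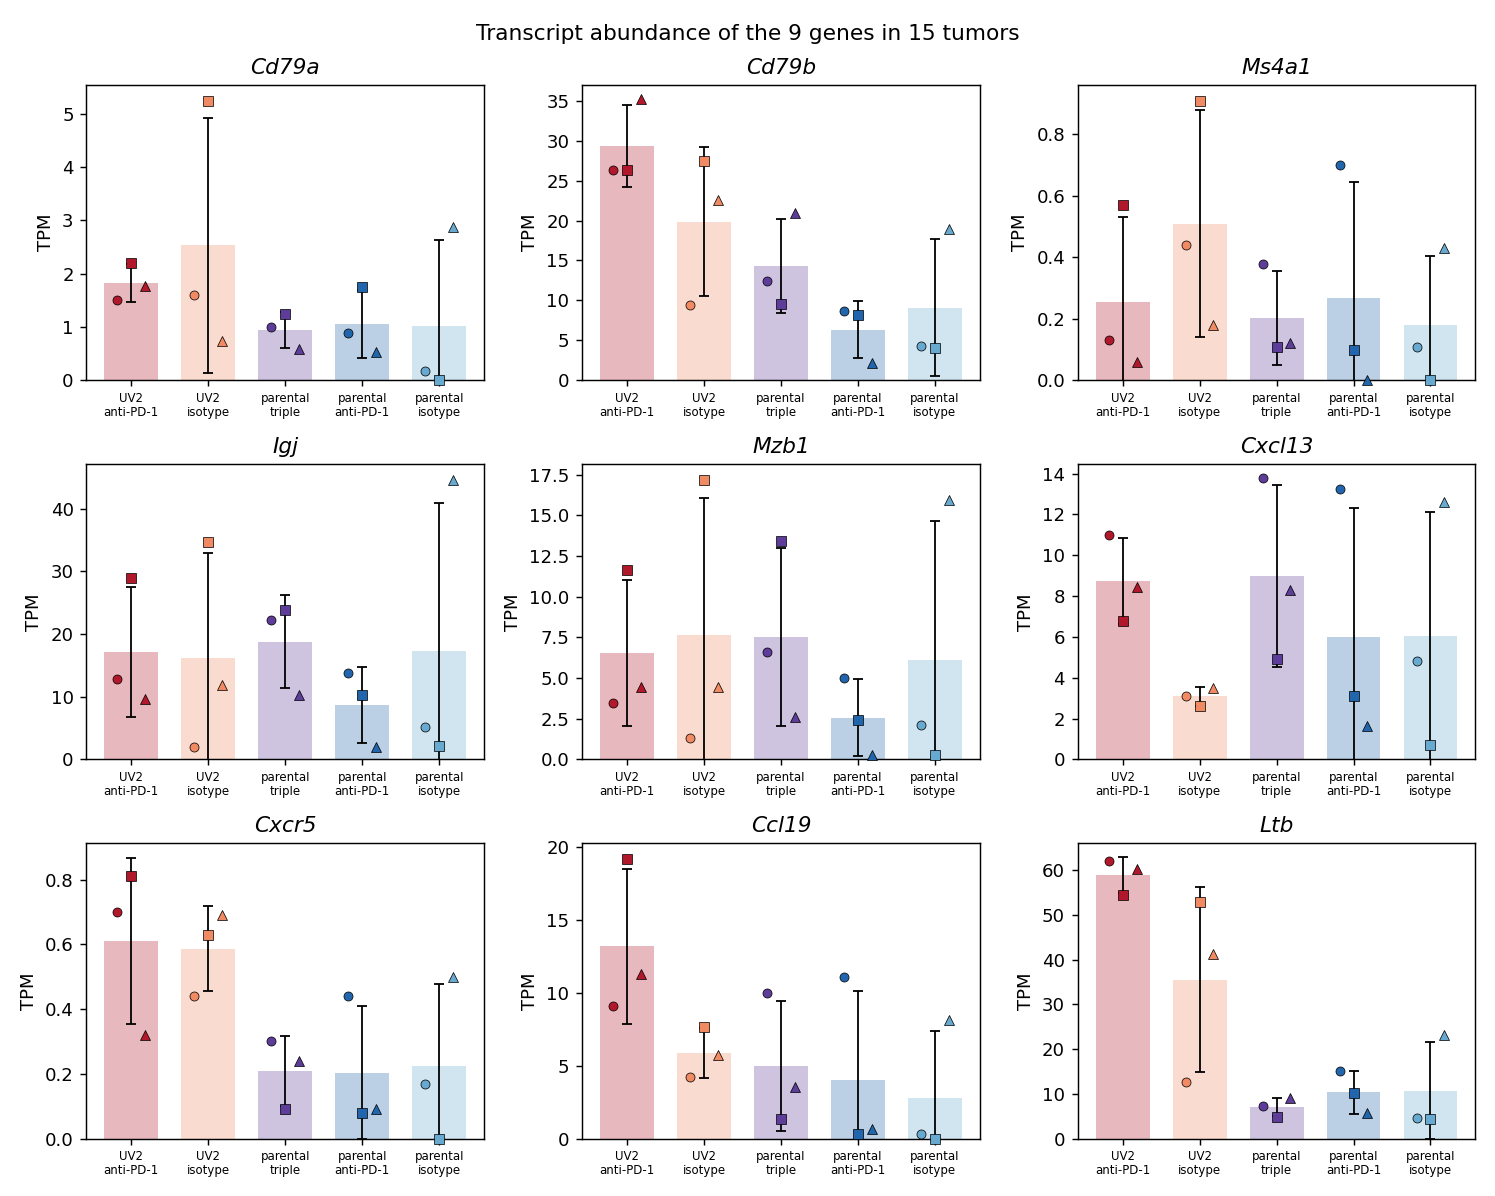
TPM of each of the 9 genes (vertical axis, a separate linear scale from 0 for each gene) in the 5 groups (horizontal axis). Bars are means, whiskers are 1 SD (cut at 0), and circles, squares and triangles are replicates 1, 2 and 3. The 3 UV2 anti-PD-1 tumors lie above the 12 other tumors for Ltb (54.4 to 62.0 TPM, against at most 52.9 TPM), and no library reaches 1 TPM for Ms4a1 or Cxcr5.

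The B cell receptor chain Cd79a (chromosome 7, 24897381 to 24902197, plus strand, GRCm38) was listed at low levels. Its level was 1.51, 2.21 and 1.77 TPM in UV2 anti-PD-1 tumors and 1.60, 5.25 and 0.74 TPM in UV2 isotype tumors. In the parental line it was 1.00, 1.25 and 0.58 TPM under triple therapy, 0.88, 1.76 and 0.53 TPM under anti-PD-1, and 0.17, 0 and 2.87 TPM under isotype antibody. Its groups overlapped in every comparison, and 9 of the 15 libraries reached 1 TPM. The highest value belonged to UV2 isotype replicate 2, which was also highest of the 15 for Ms4a1 and Mzb1.

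Cd79b (chromosome 11, 106311341 to 106314762, minus strand) was far more abundant and differed between the lines under anti-PD-1. Its level was 26.3, 26.3 and 35.2 TPM in UV2 anti-PD-1 tumors and 9.48, 27.5 and 22.6 TPM in UV2 isotype tumors. Parental tumors held 12.4, 9.57 and 20.9 TPM under triple therapy, 8.62, 8.19 and 2.18 TPM under anti-PD-1, and 4.28, 4.0 and 19.0 TPM under isotype antibody. All UV2 anti-PD-1 tumors exceeded all parental anti-PD-1 tumors, as for 16.9% of all genes, while 34.3% lay wholly below. The Cd79b means were 29.3 ± 5.14 and 6.33 ± 3.60 TPM (SD, n = 3 each). The log2 fold change was 2.20 ± 0.57 (95% interval 0.96 to 3.43, limma adjusted p = 0.0233). The call was lost without UV2 anti-PD-1 replicate 3 (2.06, adjusted p = 0.0984) and without parental anti-PD-1 replicate 3 (1.67, adjusted p = 0.105). UV2 isotype tumors exceeded parental isotype tumors by 1.25 ± 0.57 (limma adjusted p = 0.276), and these groups overlapped.

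The 2 chains form one receptor complex, yet their levels were unequal in these tumors. On the TPM scale, which is per transcript length, Cd79b was 4.11 to 36.1 times Cd79a (median 10.9) in the 14 libraries in which Cd79a was not listed at 0. Across the 15 libraries the pair had a Pearson r of 0.648 and a Spearman rho of 0.661 (permutation p = 0.00839 and 0.0086, adjusted 0.0201 and 0.0258 over 36 pairs of members). Without the 2 libraries farthest from the median of Cd79a, r was 0.547. Within the lines it was 0.227 over 6 UV2 tumors and 0.614 over 9 parental tumors.

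Cd79b had a higher correlation with macrophage markers than with Cd79a, a difference that was not tested. With the summed level of 11 macrophage and monocyte markers its r was 0.919 and its rho 0.925 (permutation p = 1e-05 for both, the smallest that 100000 permutations can give, adjusted 0.00012 over 36 member and marker pairs). Without the 2 farthest libraries r was 0.904, and it was 0.954 within UV2 tumors and 0.936 within parental tumors. That summed level was 9583 to 14343 TPM in UV2 anti-PD-1 tumors, 5111 to 10371 TPM in UV2 isotype tumors, and 3918 to 5223, 2559 to 4135 and 2683 to 4985 TPM in parental tumors under triple therapy, anti-PD-1 and isotype antibody, with none of the 11 markers listed at 0 in any library. Of these markers, 8 of 11 passed the test as higher in UV2 anti-PD-1 than in parental anti-PD-1 tumors, where 9.31% of all genes did. The 3586 calls over all genes there fell to 9 without UV2 anti-PD-1 replicate 3 and to 9 without parental anti-PD-1 replicate 3. The markers' part in the Cd79b difference was not tested. Cd79b also followed the summed level of 15 T cell markers (r = 0.843, permutation p = 0.00014, adjusted 0.00126). That r was 0.952 within UV2 tumors and 0.624 within parental tumors. The permutations exchanged libraries across groups, so the p-values for both marker sums do not separate group differences from variation within groups.

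Ms4a1 (chromosome 19, 11249675 to 11266241, minus strand) did not reach the level needed for testing, which was 1 TPM or more in 3 or more libraries. It was listed at 0.13, 0.57 and 0.06 TPM in UV2 anti-PD-1 tumors and at 0.44, 0.91 and 0.18 TPM in UV2 isotype tumors. Parental tumors had 0.38, 0.11 and 0.12 TPM under triple therapy, 0.70, 0.10 and 0 TPM under anti-PD-1, and 0.11, 0 and 0.43 TPM under isotype antibody. In a fit without the filter, its log2 fold changes in the 6 group comparisons ran from -0.26 to 0.34, with limma adjusted p-values of 0.578 or more. Of other B cell genes, Pax5 did not exceed 0.20 TPM in any library and Cr2 did not exceed 0.09 TPM. Not all were as low: 23 of 38 listed genes of B cell lineage and receptor signalling reached the level needed for testing. The sums of B cell and plasma cell markers were not used as measures, since most of their genes are members. Immunoglobulin heavy and light chain genes were not analysed here.

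Igj (chromosome 5, 88519809 to 88527891, minus strand) varied widely within groups. Its level was 12.9, 29.0 and 9.67 TPM in UV2 anti-PD-1 tumors and 2.04, 34.7 and 11.8 TPM in UV2 isotype tumors. In parental tumors it was 22.2, 23.9 and 10.3 TPM under triple therapy, 13.8, 10.3 and 1.99 TPM under anti-PD-1, and 5.18, 2.10 and 44.6 TPM under isotype antibody. Every pair of groups overlapped, and the highest library, parental isotype replicate 3, shared its group with one of the lowest, replicate 2. The means under anti-PD-1 were 17.2 ± 10.4 TPM in UV2 tumors and 8.69 ± 6.07 TPM in parental tumors (SD, n = 3 each), a log2 fold change of 1.05 with a 95% interval of -1.14 to 3.24 (limma adjusted p = 0.428).

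Mzb1 (chromosome 18, 35647267 to 35649367, minus strand) ranked its 3 libraries in the same order as Igj in 4 of the 5 groups. It reached 3.46, 11.7 and 4.47 TPM in UV2 anti-PD-1 tumors and 1.35, 17.2 and 4.45 TPM in UV2 isotype tumors. Parental tumors held 6.59, 13.4 and 2.61 TPM under triple therapy, 4.99, 2.40 and 0.27 TPM under anti-PD-1, and 2.10, 0.30 and 16.0 TPM under isotype antibody. All groups overlapped, and no comparison of Mzb1 passed the test (limma adjusted p = 0.340 or more in the 6 group comparisons). For UV2 against parental tumors under anti-PD-1 the difference was 1.19, with a 95% interval of -0.88 to 3.26.

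Igj and Mzb1 were the closest pair among the 9 genes. Their r was 0.957 and their rho 0.949 (permutation p = 1e-05 for both, the smallest possible, adjusted 0.00036 over 36 pairs). Without the 2 farthest libraries r was 0.962, and it was 0.949 within UV2 tumors and 0.973 within parental tumors. Igj was 1.51 to 7.37 times as abundant as Mzb1 (median 2.77) on the TPM scale. Among all other genes tested, Mzb1 had the highest correlation with Igj, followed by Pou2af1 (r = 0.891), a coactivator of octamer-binding factors in B cells, and by 0610040B10Rik (r = 0.841). For Mzb1 the order was Igj, Pou2af1 (r = 0.875) and Gpn2 (r = 0.836). Plasmacytoid dendritic cells also express Mzb1, and with the summed level of 13 markers of those cells Mzb1 had an r of 0.362 and a rho of 0.339 (permutation p = 0.184 and 0.214, adjusted 0.246 and 0.257). Without the 2 farthest libraries that r was 0.216, and within the lines it was 0.392 in UV2 and 0.265 in parental tumors. The 13 markers include Ly6d, which stratified epithelium also expresses and which made up most of their sum in parental triple therapy replicate 1. Their sum is thus not a measure of plasmacytoid dendritic cells alone, and the correlation was not repeated without Ly6d.

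**Figure D2:**
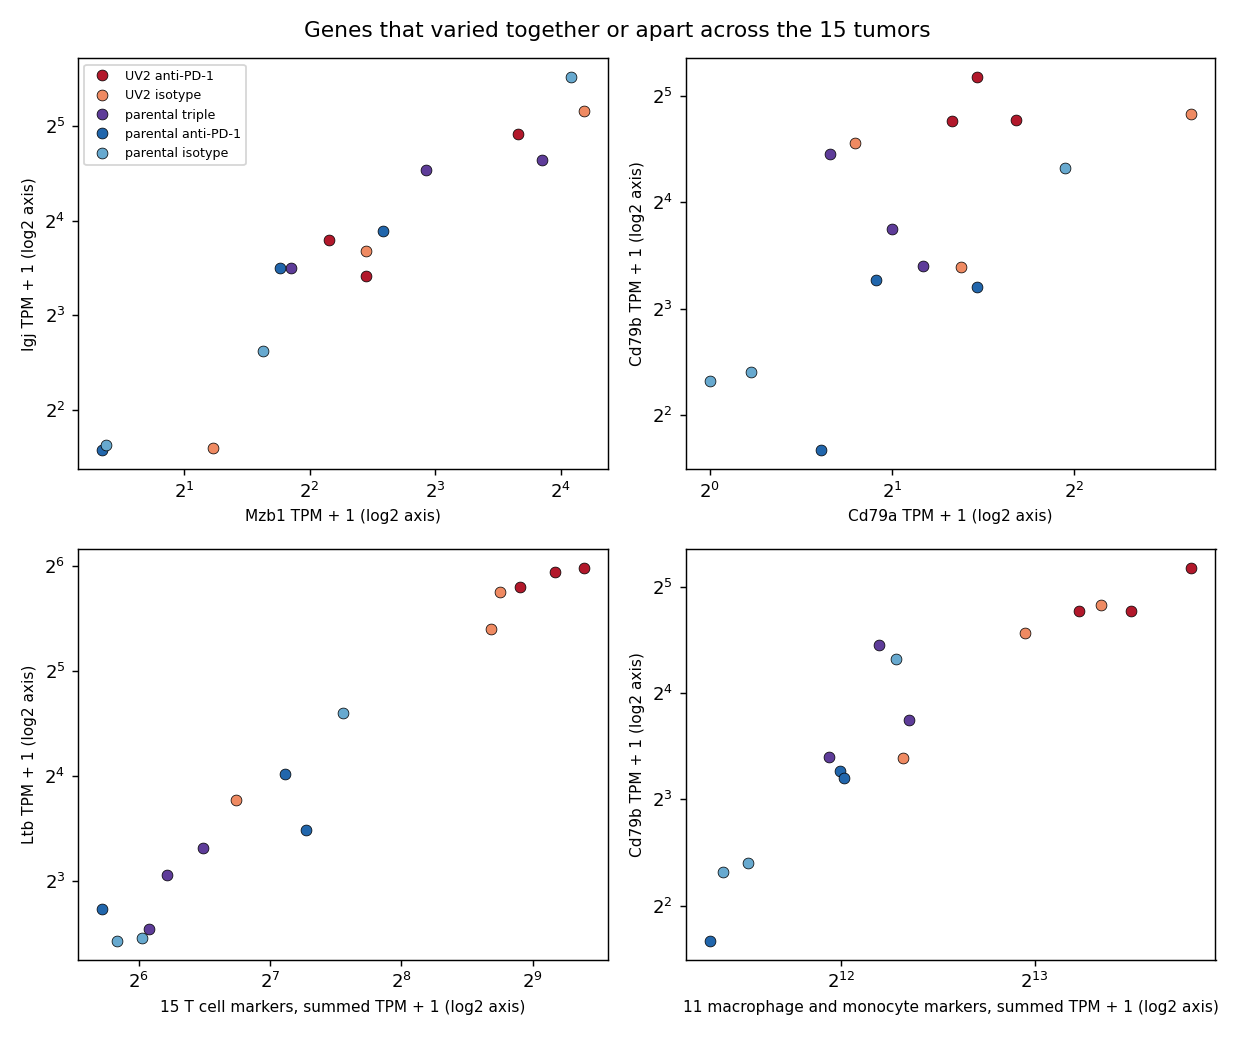
Pairs of levels across the 15 tumors, each axis as TPM + 1 on a log2 scale, with 1 point per library coloured by group. Igj and Mzb1 run along a line (r = 0.957), Cd79b is scattered against Cd79a (r = 0.648), Ltb follows the sum of 15 T cell markers (r = 0.983), and Cd79b follows the sum of 11 macrophage and monocyte markers (r = 0.919).

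Cxcl13 (chromosome 5, 95956951 to 95961068, plus strand), the chemokine of B cell follicles, separated the UV2 groups by treatment. It stood at 10.97, 6.78 and 8.47 TPM in UV2 anti-PD-1 tumors and at 3.11, 2.63 and 3.52 TPM in UV2 isotype tumors. Parental tumors had 13.8, 4.94 and 8.31 TPM under triple therapy, 13.2, 3.12 and 1.64 TPM under anti-PD-1, and 4.83, 0.69 and 12.6 TPM under isotype antibody. The UV2 groups did not overlap, with means of 8.74 ± 2.11 TPM under anti-PD-1 and 3.09 ± 0.45 TPM under isotype antibody (SD, n = 3 each). Of all genes, 5.70% lay wholly above and 7.28% wholly below the isotype group in this comparison. The log2 fold change of Cxcl13, 1.24 ± 0.69, did not pass the test (95% interval -0.26 to 2.73, limma adjusted p = 0.558). In the parental line the change under anti-PD-1 was 0.07 ± 0.69, and the difference between the lines, 1.17 ± 0.98, was not called (limma adjusted p = 0.800).

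Cxcr5 (chromosome 9, 44511787 to 44561877, minus strand), the receptor of Cxcl13 on B cells and follicular helper T cells, stayed under 1 TPM in all libraries and was left out of the main test. UV2 anti-PD-1 tumors had 0.70, 0.81 and 0.32 TPM and UV2 isotype tumors 0.44, 0.63 and 0.69 TPM. Parental tumors had 0.30, 0.09 and 0.24 TPM under triple therapy, 0.44, 0.08 and 0.09 TPM under anti-PD-1, and 0.17, 0 and 0.50 TPM under isotype antibody. Means in UV2 tumors were thus 0.61 ± 0.26 TPM under anti-PD-1 and 0.59 ± 0.13 TPM under isotype antibody, against 0.20 ± 0.20 and 0.22 ± 0.25 TPM in parental tumors under the same antibodies (SD, n = 3 each). In the fit without the filter the differences between the lines were 0.42 ± 0.17 under anti-PD-1 and 0.39 ± 0.17 under isotype antibody (limma adjusted p = 0.0992 and 0.308). The ligand and its receptor did not clearly vary together over all tumors (r = 0.437, rho = 0.376, permutation p = 0.104 and 0.167, adjusted 0.121 and 0.182, and r = 0.323 without the 2 farthest libraries). Their r was 0.903 within the 9 parental tumors and 0.01 within the 6 UV2 tumors.

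Ccl19 (chromosome 4, 42754525 to 42756577, minus strand), a chemokine of the T cell zone, varied strongly in parental tumors. It was 9.09, 19.2 and 11.3 TPM in UV2 anti-PD-1 tumors and 4.26, 7.68 and 5.71 TPM in UV2 isotype tumors. Parental tumors held 10.0, 1.38 and 3.56 TPM under triple therapy, 11.1, 0.31 and 0.69 TPM under anti-PD-1, and 0.34, 0 and 8.12 TPM under isotype antibody. All UV2 anti-PD-1 tumors were above all UV2 isotype tumors, as for 5.70% of all genes. Parental anti-PD-1 replicate 1 lay within the UV2 anti-PD-1 range. The difference between the lines under anti-PD-1 was 2.18 ± 0.90 and did not pass (limma adjusted p = 0.0824), but it passed without parental anti-PD-1 replicate 1 (3.19, adjusted p = 0.0367). Within UV2 the change under anti-PD-1 was 1.01 ± 0.90 (limma adjusted p = 0.643). Near-identical copies of Ccl19 and of Ccl21a lie on the same chromosome, so how reads were divided among the copies makes both levels uncertain.

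Ltb (chromosome 17, 35194439 to 35196320, plus strand), whose promoter is printed above, was the most abundant member in UV2 tumors by mean TPM. It was measured at 62.0, 54.4 and 60.2 TPM in UV2 anti-PD-1 tumors and at 12.6, 52.9 and 41.1 TPM in UV2 isotype tumors. In parental tumors it reached 7.33, 4.83 and 8.98 TPM under triple therapy, 15.2, 10.2 and 5.68 TPM under anti-PD-1, and 4.50, 4.40 and 23.2 TPM under isotype antibody. Group means were 58.9 ± 3.96 TPM in UV2 anti-PD-1, 35.5 ± 20.7 TPM in UV2 isotype, 7.05 ± 2.09 TPM in parental triple therapy, 10.3 ± 4.76 TPM in parental anti-PD-1 and 10.7 ± 10.8 TPM in parental isotype tumors (SD, n = 3 each). The 3 parental groups overlapped one another, as did UV2 isotype and parental isotype tumors.

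Under anti-PD-1, Ltb rose in UV2 tumors by 2.49 ± 0.59 (95% interval 1.22 to 3.76, limma adjusted p = 0.0185). The call was lost without UV2 anti-PD-1 replicate 3 (2.47, adjusted p = 0.0760) and without parental anti-PD-1 replicate 3 (2.15, adjusted p = 0.0902). Under isotype antibody the difference was 1.81 ± 0.59 (limma adjusted p = 0.126), and it passed without UV2 isotype replicate 1 (2.41, adjusted p = 0.0440) or without parental isotype replicate 3 (2.53, adjusted p = 0.0273). Within UV2, all anti-PD-1 tumors exceeded all isotype tumors, as for 5.70% of all genes. The difference in Ltb was 0.93 ± 0.59 (limma adjusted p = 0.577).

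Ltb followed the level of T cell markers. With the summed level of 15 T cell markers its r was 0.983 and its rho 0.968 (permutation p = 1e-05 for both, the smallest possible, adjusted 0.00012 over 36 pairs). Without the 2 farthest libraries r was 0.978, and it was 0.989 within UV2 and 0.922 within parental tumors. Here too the permutations exchanged libraries across groups, so the p-values do not separate group differences from variation within groups. The marker sum was 479 to 670 TPM in UV2 anti-PD-1 tumors, 106 to 431 TPM in UV2 isotype tumors, and 66.6 to 88.8, 51.7 to 154 and 56.2 to 187 TPM in parental tumors under triple therapy, anti-PD-1 and isotype antibody. At most 1 of the 15 markers was listed at 0 in a library. All 14 markers tested were higher in UV2 anti-PD-1 than in parental anti-PD-1 tumors. Of these, 13 passed the test, where 9.31% of all genes were called as higher. Their part in the Ltb difference was not tested. The genes with the pattern most like Ltb over the 15 libraries were Gimap7 (r = 0.993), Lck (r = 0.985), the kinase of the T cell receptor and one of the 15 markers, and Gimap3 (r = 0.983). For Cd79b they were Clec4b1, Clec4a3 and Hcls1 (r = 0.962, 0.957 and 0.953). Ccl19 was nearest to Ltc4s, Chchd10 and Clec10a (r = 0.959, 0.952 and 0.944), and Cxcl13 to Gm2083, Steap1 and 1100001G20Rik (r = 0.948, 0.900 and 0.892). Cxcr5 was nearest to Enoph1, Kmo and Flt3 (r = 0.920, 0.914 and 0.911), and Cd79a to Mrps18a, Itgb1bp1 and Mrps12 (r = 0.890, 0.873 and 0.867). Ms4a1 had its highest r with Siglec5, Ears2 and Cd209e (0.768, 0.765 and 0.765). These are descriptions over libraries that share their groups, chosen as the highest among 13592 genes.

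The comparisons can be set against all 13592 genes tested. Under anti-PD-1, 2 of the 7 tested members were called, both higher in UV2, where 26.4% of all genes were called and 9.31% were called as higher. These 2 were also the members without overlap, against 16.9% of all genes that lay wholly above the parental group and 34.3% wholly below it. Over all genes, 1265 were higher and 2321 lower in UV2 under anti-PD-1, and 1951 higher and 1793 lower with median-of-ratios scaling, which moved the median of all genes by 0.24 (log2), while quantile normalization moved it by 0.16. Ltb and Cd79b stood at 2.75 and 2.45 under median-of-ratios scaling, and at 2.65 and 2.35 under quantile normalization, and remained called under both. The total of 3586 called genes shrank to 9 without UV2 anti-PD-1 replicate 3, to 9 without parental anti-PD-1 replicate 3, to 1475 without UV2 anti-PD-1 replicate 2 and to 1213 without parental anti-PD-1 replicate 1.

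Under isotype antibody, 0 of 7 members were called between the lines by limma, against 1.29% of all genes, and Ltb and Cd79b had an unadjusted p under 0.05 (0.0089 and 0.0483), as had 17.8% of all genes. No member was free of overlap there, against 10.4% of genes that lay wholly higher and 9.15% that lay wholly lower in UV2. Log2 fold changes of UV2 against parental isotype tumors were 0.88 for Cd79a, 0.22 for Igj, 0.59 for Mzb1, -0.33 for Cxcl13 and 1.55 for Ccl19, each with a limma adjusted p of 0.404 or more. Over all genes, 123 were higher and 53 lower in UV2 under isotype antibody, against 65 and 82 with median-of-ratios scaling and 72 and 70 with quantile normalization. The total of 176 became 408 without UV2 isotype replicate 1, 458 without parental isotype replicate 3, 61 without UV2 isotype replicate 3, and 3 without UV2 isotype replicate 2, parental isotype replicate 1 or parental isotype replicate 2. The 2 comparisons between the lines share no library.

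Anti-PD-1 against isotype in UV2 tumors gave no called member (0 of 7 by limma, none with an unadjusted p under 0.05), where 0.0147% of all genes were called. Cxcl13, Ccl19 and Ltb, 3 of the 7, lay wholly above the isotype group, against 5.70% of all genes, while 7.28% of genes and no member lay wholly below it. Cd79b changed by 0.65, Igj by 0.56, Mzb1 by 0.14 and Cd79a by -0.11, all with overlap. In parental tumors anti-PD-1 gave 0 called members, 0% of all genes called by limma and 83 genes at an unadjusted p under 0.05, none of them a member. The members' log2 fold changes ran from -0.47 (Mzb1) to 0.38 (Ccl19), and none lay wholly above or below the isotype group, against 2.70% of genes wholly above and 1.57% wholly below. The effect of anti-PD-1 did not differ between the lines for any member by the test of that difference (0% of all genes called by limma, 404 at an unadjusted p under 0.05, none of them a member; members' adjusted p = 0.800 to 0.886).

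Triple therapy against isotype in parental tumors gave no called member (0 of 7, none with an unadjusted p under 0.05), where 0.0221% of all genes were called by limma. The fitted differences were 0.85 for Cd79b, 0.97 for Igj, 0.84 for Mzb1, 0.87 for Cxcl13 and 1.10 for Ccl19, with 0.22 for Cd79a and -0.19 for Ltb (limma adjusted p = 0.562 to 0.907). No member lay wholly above the isotype group, against 12.7% of all genes, and none wholly below it, against 3.39%. Without triple therapy replicate 1, the library with the most keratinocyte RNA, Cxcl13 stood at 0.54 and Ccl19 at 0.52, while Cd79b stood at 0.91, Igj at 0.81, Mzb1 at 0.82, Cd79a at 0.19 and Ltb at -0.23. Against parental anti-PD-1, with which this comparison shares the triple therapy libraries, the differences were 1.16 ± 0.57 for Cd79b, 1.24 for Igj, 1.31 for Mzb1, 0.80 for Cxcl13, 0.72 for Ccl19, -0.05 for Cd79a and -0.44 for Ltb. None was called (0% of all genes by limma, 1411 at an unadjusted p under 0.05, none of them a member, with adjusted p = 0.508 for Cd79b). Cd79b alone of the 7 lay wholly above the anti-PD-1 group, against 7.30% of all genes, and no member lay wholly below it, against 5.01%. Without replicate 1 it stood at 1.22, Igj at 1.08, Mzb1 at 1.29, Cxcl13 at 0.47, Ccl19 at 0.14, Cd79a at -0.081 and Ltb at -0.48. The antibody given with triple therapy being unknown, neither comparison can be read as the effect of the laser and the cream alone.

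**Figure D3:**
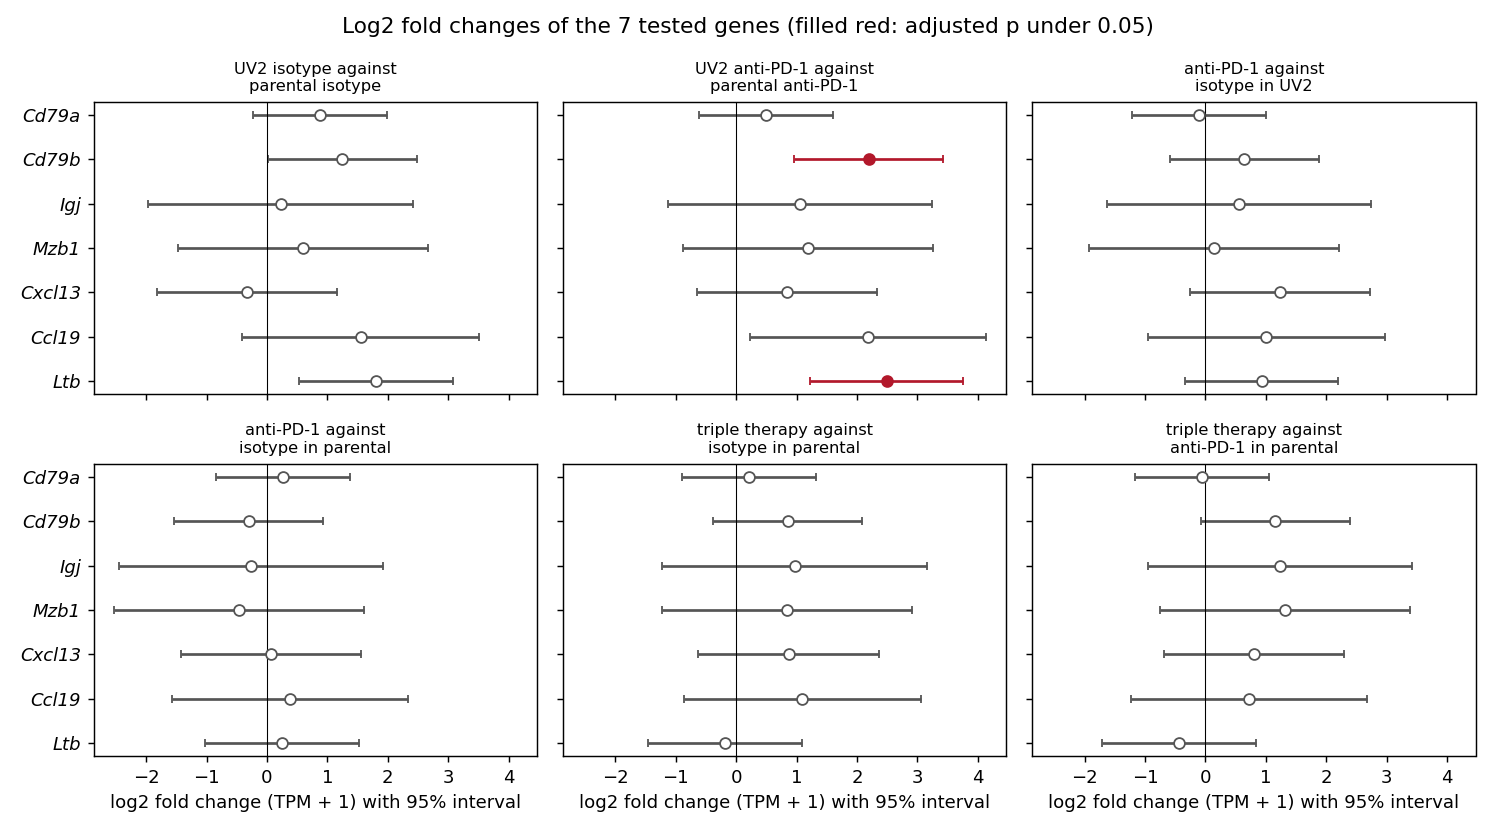
Fitted log2 fold changes (horizontal axis, on log2(TPM + 1)) with 95% intervals for the 7 tested genes (vertical axis) in 6 comparisons, from the fit over 15 libraries. Filled red points passed an adjusted p of 0.05: Cd79b (2.20) and Ltb (2.49) in UV2 against parental tumors under anti-PD-1, and no others.

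Genes that work with the members were described through 6 lists. Their counts stand beside 9.31% of all genes that rose and 17.1% that fell in UV2 anti-PD-1 against parental anti-PD-1 tumors, and 0.905% that rose and 0.390% that fell in UV2 isotype against parental isotype tumors. Of 23 tested genes of B cell lineage and receptor signalling, 8 rose and 0 fell in UV2 anti-PD-1 against parental anti-PD-1 tumors, with a median log2 fold change of 1.05 against -0.21 over all genes. They included Cd72, an inhibitory coreceptor (1.99, adjusted p = 0.0145), Blnk, the adaptor behind the B cell receptor (1.64, adjusted p = 0.0160), and the kinases Btk (1.46, adjusted p = 0.0106) and Lyn (1.28, adjusted p = 0.0160), all by limma. Lyn and Btk are also used by myeloid cells. In the same comparison 8 of 11 macrophage and monocyte markers were called as higher. Which cells expressed the 8 B cell list genes that rose was not tested. The B cell surface lectin Cd22 was at 8.90 ± 0.15 TPM in UV2 anti-PD-1 and 4.70 ± 2.04 TPM in parental anti-PD-1 tumors (SD, n = 3 each), and Pou2af1 differed by -0.07, and neither was called (limma adjusted p = 0.117 and 0.921). Under isotype antibody 0 of the 23 were called by limma, 8 had an unadjusted p under 0.05 (17.8% of all genes) and the median was 0.57 against -0.04 over all genes, with Btk at 1.08 and Lyn at 1.00 (adjusted p = 0.0612 and 0.0949).

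Of 17 tested genes of plasma cells and antibody secretion, 0 rose and 1 fell in UV2 anti-PD-1 against parental anti-PD-1 tumors, with a median of 0.10. The gene that fell was Ell2 (-1.74, limma adjusted p = 0.0112), an elongation factor used for secreted antibody messages, at 22.0 ± 7.50 TPM in UV2 anti-PD-1 and 74.9 ± 19.5 TPM in parental anti-PD-1 tumors (SD, n = 3 each). The plasma cell regulators Prdm1 (0.01), Xbp1 (-0.04) and Irf4 (1.06) and the surface proteoglycan Sdc1 (-0.34) were not called (limma adjusted p = 0.982, 0.868, 0.0728 and 0.441). Under isotype antibody 0 of 17 were called by limma and 4 had an unadjusted p under 0.05 (17.8% of all genes), with a median of -0.18 and Ell2 at -1.42 (adjusted p = 0.0549). Tnfrsf17, the plasma cell survival receptor, did not exceed 2.02 TPM in any library.

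Among lymphoid tissue chemokines and receptors, 4 of 12 tested genes rose and 0 fell in UV2 anti-PD-1 against parental anti-PD-1 tumors, with a median of 1.06. They included Ccr7, the receptor of Ccl19 (1.69, adjusted p = 0.0316), the chemokine Cxcl12 (2.26, adjusted p = 0.0372) and the cytokine subunit Ebi3 (1.60, adjusted p = 0.0157), all by limma. Ccr7 averaged 28.8 ± 7.22 TPM in UV2 anti-PD-1 and 8.62 ± 3.60 TPM in parental anti-PD-1 tumors (SD, n = 3 each). Under isotype antibody 1 of 12 rose, the scavenging receptor Ccrl1, also named Ackr4 (2.16, limma adjusted p = 0.0399), a call that was kept with a pseudocount of 0.1. The list had 0 called genes with no filter, a minimum of 5 TPM, median-of-ratios scaling, quantile normalization, the compared groups alone and the replicate block. Ccl21a, the other ligand of Ccr7, was not called in any comparison. It was listed at 0.16, 26.0 and 59.5 TPM in UV2 anti-PD-1 tumors and at 0.63, 0 and 17.9 TPM in UV2 isotype tumors. In parental tumors it was 42.5, 8.76 and 50.9 TPM under triple therapy, 0, 1.09 and 0.37 TPM under anti-PD-1, and 0, 0.94 and 6.17 TPM under isotype antibody. All triple therapy tumors thus lay above both other parental groups, by 4.30 over anti-PD-1 and 3.54 over isotype antibody (limma adjusted p = 0.384 and 0.351), and by 3.99 and 3.23 without triple therapy replicate 1. Ccr7 lay wholly below both in triple therapy tumors, with 2.17 ± 0.57 TPM, against 8.62 ± 3.60 TPM under anti-PD-1 and 9.22 ± 6.61 TPM under isotype antibody (SD, n = 3 each). The differences were -1.53 and -1.52 (limma adjusted p = 0.387 and 0.337), and -1.55 and -1.54 without triple therapy replicate 1. Of all genes, 7.30% lay wholly above and 5.01% wholly below the anti-PD-1 group under triple therapy. Against the isotype group these shares were 12.7% and 3.39%.

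Lymphotoxin and TNF family genes included 6 of 16 that rose and 0 that fell in UV2 anti-PD-1 against parental anti-PD-1 tumors, with a median of 0.55. Tnf (1.29, adjusted p = 0.00927), Cd40, the receptor for T cell help on B cells, dendritic cells and macrophages (1.80, adjusted p = 0.0114), and the B cell survival factors Tnfsf13b, also named BAFF (1.63, adjusted p = 0.0161), and Tnfsf13, also named APRIL (1.36, adjusted p = 0.0209), led them by limma. Tnf and Cd40 also rose under isotype antibody (1.24 and 1.88, limma adjusted p = 0.0214 and 0.0308), the 2 called of 16 there. Tnf was the member of the list with the smallest p under triple therapy against isotype antibody, with 11.4 ± 1.52 TPM against 4.62 ± 0.56 TPM (SD, n = 3 each; 1.14, limma adjusted p = 0.0913, and 1.04, adjusted p = 0.340, without triple therapy replicate 1). Lta, the subunit that pairs with Ltb, stayed low, at 1.35 ± 0.55 TPM in UV2 anti-PD-1 and 0.34 ± 0.15 TPM in parental anti-PD-1 tumors (SD, n = 3 each; 0.78, limma adjusted p = 0.0612). Their receptor Ltbr ranged only from 91.7 to 111 TPM over the 15 libraries, and was not called in any comparison.

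Lymphoid stroma and high endothelial venule genes moved in both directions in UV2 anti-PD-1 against parental anti-PD-1 tumors, with 3 of 13 higher and 3 lower, where 9.31% and 17.1% of all genes were, and a median of 0.39. The enzyme Fut7 (1.78, adjusted p = 0.0177) and the adhesion molecule Icam1 (1.31, adjusted p = 0.0243) were higher, and Clu (-1.57, adjusted p = 0.0238) and the BMP antagonist Grem1 (-3.42, adjusted p = 0.0250) were lower, by limma. Clu also fell under isotype antibody (-2.04, limma adjusted p = 0.0386), the 1 called of 13 there, and 0 were called with no filter, with the replicate block and in the compared groups alone. Of the stromal survival factor Il7, the level differed by -0.70 under anti-PD-1 (limma adjusted p = 0.135).

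On the follicular helper T cell list, 7 of 9 tested genes rose and 0 fell in UV2 anti-PD-1 against parental anti-PD-1 tumors, with a median of 1.41. Batf (2.28, adjusted p = 0.0122), Sh2d1a (2.59, adjusted p = 0.0154), Icos (1.63, adjusted p = 0.0197) and Il21r (1.41, adjusted p = 0.0229) led them by limma, and activated T cells in general use these genes. Bcl6, the transcription factor that defines follicular helper cells, differed by -0.74 and was not called (limma adjusted p = 0.0560), and Il21 did not exceed 0.17 TPM. Under isotype antibody 0 of 9 were called by limma, the median was 1.06, and 6 had an unadjusted p under 0.05 (17.8% of all genes). In the 4 treatment comparisons and in the test of the difference between the lines, none of the 6 lists had a called gene by limma. Without triple therapy replicate 2 the B cell lineage list had 1 called gene, the lymphotoxin list 1 and the stroma list 2 against isotype antibody, and the B cell lineage list 1 against anti-PD-1. In triple therapy against isotype antibody, 11 of the 23 B cell lineage genes had an unadjusted p under 0.05 (12.6% of all genes), with a median of 0.69 against 0.12 over all genes. Without triple therapy replicate 1 these were 4 of 23 (4.05% of all genes), with a median of 0.59 against 0.11. Of the 23, Ly6d, a marker of early B lineage cells that stratified epithelium also expresses, stood at 873, 8.31 and 79.4 TPM in triple therapy tumors and at 0.71, 0.40 and 4.42 TPM in parental isotype tumors (5.21, limma adjusted p = 0.313, and 3.54, adjusted p = 0.970, without replicate 1). In the same comparison the median over tested keratinocyte markers was 7.75, over neutrophil markers 2.59 and over fibroblast markers 1.15, and their part in the list's values was not tested. All calls of these lists under anti-PD-1 were lost without UV2 anti-PD-1 replicate 3 and again without parental anti-PD-1 replicate 3 (0 called in each of the 6 lists). With UV2 anti-PD-1 replicate 2 left out, the follicular helper list had 3 called genes and the chemokine list 2. With parental anti-PD-1 replicate 1 left out, these lists had 4 and 2 and the stroma list 3. The chemokine list had 2 without parental anti-PD-1 replicate 2, and the B cell lineage list 5 without UV2 anti-PD-1 replicate 1. With no filter the B cell lineage list had 5 called genes and the chemokine list 2, and with the replicate block the B cell lineage list had 5.

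Under isotype antibody the 4 calls of these lists (Ccrl1, Tnf, Cd40 and Clu) were all lost in a fit of the compared groups alone, and when UV2 isotype replicate 2, parental isotype replicate 1 or parental isotype replicate 2 was left out. Without UV2 isotype replicate 1 the B cell lineage list had 3 called genes, the follicular helper list 3, the lymphotoxin list 4 and the chemokine list 0. Without UV2 isotype replicate 3 the lymphotoxin list had 1, the stroma list 0 and the plasma cell list 1. Without parental isotype replicate 3 the B cell lineage list had 1, the plasma cell list 1, the follicular helper list 3 and the chemokine list 2. The plasma cell list had 1 called gene with median-of-ratios scaling or quantile normalization under isotype antibody, and 2 under anti-PD-1.

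**Figure D4:**
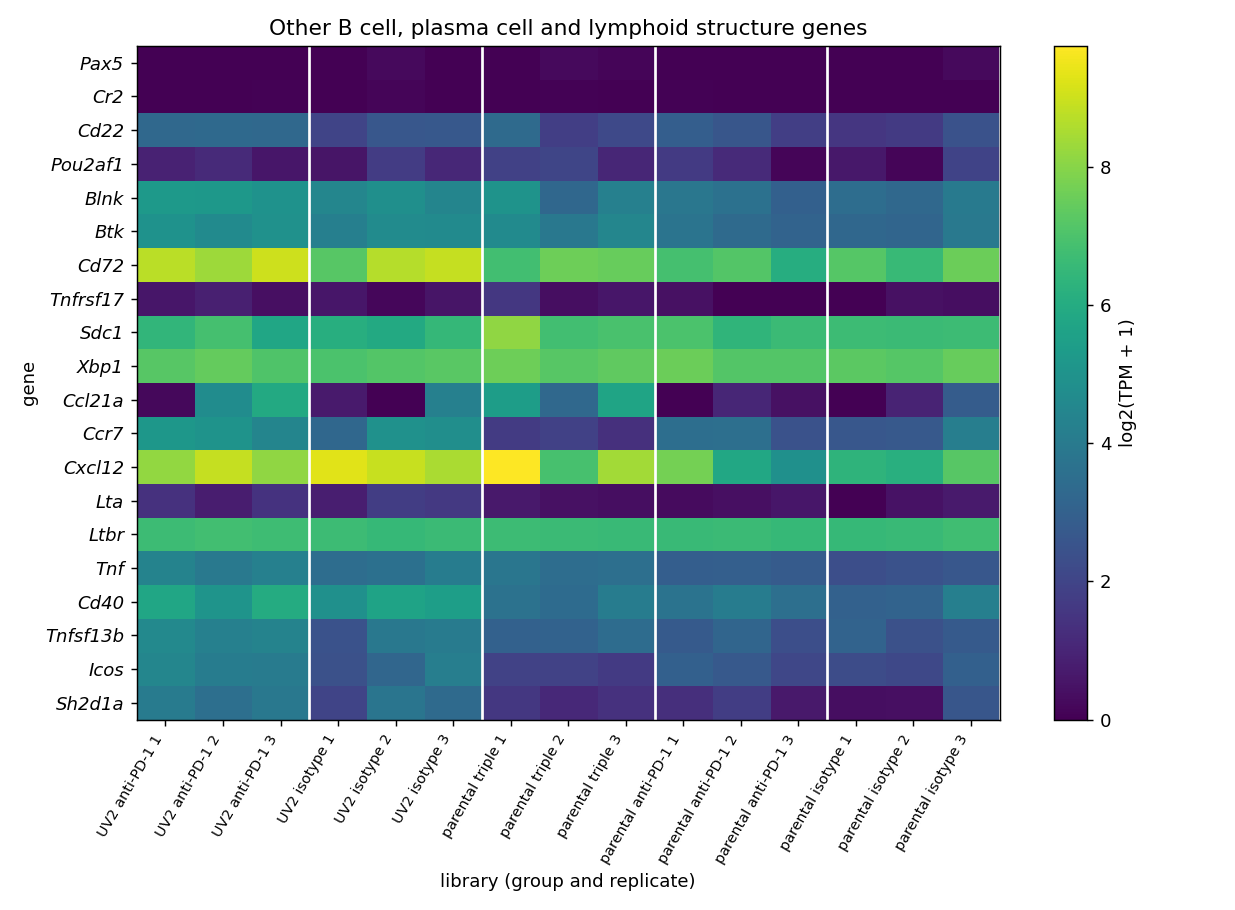
Levels of genes of the 6 lists (rows) in the 15 libraries (columns, grouped and separated by white lines), coloured by log2(TPM + 1) on the scale at the right. Pax5 and Cr2 are dark in all libraries, Ccr7, Cd40 and Icos are brighter in UV2 anti-PD-1 than in parental anti-PD-1 tumors, and Ltbr is even throughout.

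Across the 15 libraries, the 9 genes varied from library to library as well as between groups. Of their 36 pairs, 24 had an r with an adjusted permutation p under 0.05 over the 15 libraries and 0 had a negative r. The permutations exchanged libraries across groups, so these p-values do not separate group differences from variation within groups. The share over all pairs of genes was not computed. Within the 6 UV2 tumors r was negative for Ms4a1 with Cxcl13 (-0.636), Cd79b (-0.195) and Ltb (-0.164). It was also negative there for Cxcl13 with Cd79a (-0.284) and Mzb1 (-0.134). Within parental tumors every pair had a positive r. Cd79b with Ltb had an r of 0.850 and a rho of 0.829 (permutation p = 0.00015 and 0.00033, adjusted 0.00162 and 0.00396), an r of 0.847 without the 2 farthest libraries, and 0.973 within UV2 but 0.631 within parental tumors. Cxcr5 with Ltb had an r of 0.855 and a rho of 0.844 (permutation p = 0.00018 and 0.00023, adjusted 0.00162 and 0.00396) and an r of 0.812 without the 2 farthest libraries, and within the lines 0.321 in UV2 and 0.828 in parental tumors. Parental isotype replicate 3 was the highest of its group for all 9 genes, and parental anti-PD-1 replicate 3 the lowest of its group for 7 of them. Parental isotype replicate 2 was the lowest of its group for all 9.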

How the data were processed

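RNA from 15 bulk tumors was sequenced, and the deposited table gives TPM values computed by the authors, per the submitters' processing notes with Bowtie2 and RSEM (versions not given in the sources used here) on the mouse build mm10 (GRCm38). The values of each library sum to about 1000000, and 0 columns of the table went unused. From this point, values were taken as log2(TPM + 1) for the 13592 genes that reached 1 TPM in 3 or more libraries, which leaves out Ms4a1 and Cxcr5. A single limma 3.58.1 fit in R 4.3.3 (1 coefficient per group, 10 residual degrees of freedom, eBayes with trend and robust) gave 7 two-sided comparisons, with Benjamini-Hochberg adjustment over all genes of each and calls at an adjusted p under 0.05. The steps were tested on simulated data. A fold change on this scale understates the change of low genes.

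Correlations used log2(TPM + 1) and 100000 permutations (Python 3.11.15, numpy 2.4.6), which exchanged libraries across groups for every permutation p-value. Gene positions came from GENCODE M21 on GRCm38, and promoters from RefSeq (GRCm38.p6). The members and the gene lists were chosen with earlier results of these data known. Named were all 9 members, a fixed set of related genes, for each list the called genes of smallest p, at most 4 (2 genes where none was called), and the 3 genes nearest in pattern to each member, apart from a few items that are not reported here. Alternatives changed 1 choice at a time: a 0.1 pseudocount, all 18555 genes without the filter, a minimum of 5 TPM, median-of-ratios scaling, quantile normalization, the compared groups alone, a replicate block and leaving out each library. Values of Ccl21a, Ccr7, Tnf and Ly6d without triple therapy replicate 1 were added after seeing the data.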

Additional observations from a re-analysis of the deposited data

How the results depend on the processing

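Of the alternatives for single members, 623 kept the direction and the side of the threshold, 39 changed sign when 1 library was left out, 3 changed sign under another scaling, and 4 lost and 3 gained a call, as given beside the results. The counts of called genes moved as follows. UV2 against parental isotype (176) gave 82 with no filter, 21 in the compared groups alone and 37 with the replicate block, and 3 to 458 without one library. UV2 against parental anti-PD-1 (3586) gave 9 to 4074 without one library. Anti-PD-1 in UV2 (2) gave 1 under median-of-ratios scaling, 0 under quantile normalization and 0 in the compared groups alone, and 0 to 3 without one library. Triple therapy against isotype (3) gave 5 with a pseudocount of 0.1, 0 with no filter, 0 with either scaling, 0 in the compared groups alone and 0 with the replicate block, and 0 to 257 without one library. Triple therapy against anti-PD-1 (0) gave 4 with a pseudocount of 0.1 and 0 to 195 without one library. The cause of these changes was not tested.

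The members' log2 fold changes that changed sign without one library were all uncalled, and their ranges follow. UV2 against parental isotype gave -0.61 to 1.35 for Igj, -0.24 to 1.62 for Mzb1 and -1.13 to 0.37 for Cxcl13. Anti-PD-1 in UV2 gave -0.52 to 0.40 for Cd79a, -0.38 to 1.40 for Igj and -0.56 to 0.92 for Mzb1. Anti-PD-1 in the parental line gave -0.093 to 0.88 for Cd79a, -0.65 to 0.35 for Cd79b, -1.08 to 0.86 for Igj, -1.29 to 0.56 for Mzb1, -0.73 to 0.77 for Cxcl13, -0.63 to 1.37 for Ccl19 and -0.11 to 0.97 for Ltb. Triple therapy against isotype gave -0.15 to 0.83 for Cd79a and -0.55 to 0.53 for Ltb, and against anti-PD-1 -0.24 to 0.18 for Cd79a. The difference of the anti-PD-1 effect gave -0.997 to 0.13 for Cd79a, -0.30 to 1.67 for Igj, -0.42 to 1.43 for Mzb1, -0.36 to 1.64 for Ccl19 and -0.038 to 1.07 for Ltb. Cxcl13 under anti-PD-1 in the parental line turned to -0.018 after median-of-ratios scaling and to -0.066 after quantile normalization, and Cd79a under triple therapy against isotype to -0.23 with quantile normalization. The labels do not say whether replicate numbers pair libraries. The 30 pairs with a shared number had correlations of their deviations from -0.542 to 0.470 (median -0.0752). The 60 pairs with different numbers had -0.550 to 0.619 (median 0.0385), and 5 of 15 libraries matched their own number best. Pairing by anything other than these numbers was not checked. With the number as a block Ltb (adjusted p = 0.0306) and Cd79b (adjusted p = 0.0373) passed the limma test under anti-PD-1. With 3 libraries a group and unknown depth, low values cannot be given a counting error.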
